A study of Mus musculus with 6 samples.

Results

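The CCT chaperonin (also called TRiC) is the large cytosolic folding machine of eukaryotic cells, and its ring is built from 8 different but related subunits, encoded in the mouse by Tcp1, Cct2, Cct3, Cct4, Cct5, Cct6a, Cct7 and Cct8. Its transcripts were measured by RNA-seq of whole pituitaries from male mice. All 8 genes have 1 row each among the 16736 rows of the deposited count table, where they carry upper-case symbols. Every member of the family was taken by symbol, but the family was chosen with earlier results of these data known. All 8 also passed the filter on low counts, which left 13873 tested genes.

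The study holds 3 libraries from mice labelled RD and 3 from mice labelled HFD, and all glands were taken after 16 h without food and then 4 h with food. The labels do not write out the diet names and give no strain, age or length of feeding. Whether replicates came from different animals is not stated, so the p-values rest on differences between libraries that may be technical in part. Obesity and the unfolded protein response are the setting named in the title of the series.

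Each ring subunit has a site for ATP, and a closed chamber forms as the stacked rings hydrolyse it. Actin and tubulin are the best known clients and cannot fold without the ring, and many proteins with WD repeats depend on it as well. The subunits are not alike in how they use ATP. TCP1, CCT4, CCT2 and CCT5 lie next to each other on the side of the ring known for high affinity to ATP, and CCT7, CCT8, CCT6A and CCT3 make up the side of low affinity. In secretory cells such as those of the anterior pituitary, the ring serves the cytosol and cytoskeleton, while hormones are folded in the ER by other chaperones.

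Column totals of the listed rows ran from 14185372 to 18111345 counts, and the summed ring took 12851 to 20937 counts of a library. The pituitary hormone genes GH1, PRL, POMC, TSHB, LHB, FSHB and CGA were all present, at a summed level of 85060 to 95540 CPM in RD and 58320 to 65150 in HFD. CPM here are counts scaled to a common library total after correction by TMM, a method that removes differences in library composition. The first principal component of all tested genes placed RD at -36.2 to -9.68 and HFD at 19.1 to 24.4. The outermost library was RD replicate 3, so the ring's count, median and sides, and several client genes, are also given without it. Because these are bulk samples, fewer cells of a type and less RNA per cell cannot be told apart.

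Promoter sequences of the genes are shown first, since the 8 transcripts all lay lower in HFD. RefSeq windows from 250 bases before to 50 bases after an annotated start (GRCm38.p6, the build also called mm10) were held for 7 of the 8 genes, 9 windows in all, and none was held for Cct4. They were searched for the binding motif of heat shock factors, both in its form of 3 alternating units (GAANNTTCNNGAA or TTCNNGAANNTTC) and in the shorter form of 2 units (GAANNTTC or TTCNNGAA), on both strands. The 3-unit form was in 0 of 9 windows, against 0.6% of 32851 windows of all genes. The 2-unit form was in 3 of 9 windows, against 15.1% of all. These were 1 of the 2 windows of Cct2, 1 of the 2 of Cct5, and that of Cct6a. The CCAAT box, searched as CCAAT or ATTGG and added after the sequences had been seen, was in 4 of 9 windows (Tcp1, Cct3, Cct6a and Cct7), against 37.4%. A 3-unit match also holds a 2-unit match, and a match is a description of the letters only.

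Below are 4 windows, 5′ to 3′ on the gene's own strand, with the 2-unit motif and the CCAAT box in capitals. Cct7 is shown because its transcript differed most between the groups and its window holds 3 CCAAT boxes, Cct6a because it holds both motifs, Cct5 because its start lies close to that of a second gene, and Cct8 because it holds neither motif.
Cct7, chr6:85451255-85451554, plus strand: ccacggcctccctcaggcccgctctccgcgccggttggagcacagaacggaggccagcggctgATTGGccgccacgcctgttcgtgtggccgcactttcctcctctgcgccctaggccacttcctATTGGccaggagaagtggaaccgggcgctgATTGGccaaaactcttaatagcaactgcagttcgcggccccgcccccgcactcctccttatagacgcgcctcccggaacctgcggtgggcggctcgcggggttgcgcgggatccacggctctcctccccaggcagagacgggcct
Cct6a, chr5:129787106-129787405, plus strand: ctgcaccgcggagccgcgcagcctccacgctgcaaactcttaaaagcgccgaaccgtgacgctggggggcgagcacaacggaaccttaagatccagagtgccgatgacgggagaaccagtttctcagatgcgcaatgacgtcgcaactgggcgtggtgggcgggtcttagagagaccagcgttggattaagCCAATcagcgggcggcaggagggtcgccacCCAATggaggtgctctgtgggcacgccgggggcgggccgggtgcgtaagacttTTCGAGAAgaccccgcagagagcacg
Cct5, chr15:31601797-31602096, minus strand: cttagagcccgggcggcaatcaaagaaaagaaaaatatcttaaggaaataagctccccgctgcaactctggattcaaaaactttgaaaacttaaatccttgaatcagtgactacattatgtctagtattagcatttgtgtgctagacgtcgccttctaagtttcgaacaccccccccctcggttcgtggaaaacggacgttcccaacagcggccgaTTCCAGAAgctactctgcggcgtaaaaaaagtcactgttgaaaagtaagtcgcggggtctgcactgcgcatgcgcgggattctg
Cct8, chr16:87495820-87496119, minus strand: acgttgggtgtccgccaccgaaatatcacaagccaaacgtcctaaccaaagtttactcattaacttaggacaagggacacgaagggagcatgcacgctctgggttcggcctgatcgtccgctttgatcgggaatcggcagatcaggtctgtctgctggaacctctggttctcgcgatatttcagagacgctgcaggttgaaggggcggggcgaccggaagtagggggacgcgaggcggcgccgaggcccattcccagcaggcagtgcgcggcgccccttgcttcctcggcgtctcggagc
In the Cct7 window the boxes begin 187, 125 and 95 bases before the start. In the Cct5 window shown the 2-unit motif begins 34 bases before the start, and in the Cct6a window it begins 24 bases after it. The other Cct5 window, at a second annotated start, holds neither motif.

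All 8 subunits had lower transcript levels in HFD than in RD pituitaries, by 14.5% (CCT5) to 28.2% (CCT7). In each of the 8 genes every HFD library lay below every RD library, a pattern found in 15.6% of all tested genes. By edgeR's quasi-likelihood test with Benjamini-Hochberg adjustment over all tested genes, 6 of the 8 fell (adjusted p under 0.05, referred to below as called), where 4.61% of all tested genes were called lower. The median log2 change of the 8 was -0.311, against -0.00234 over all tested genes, of which 50.4% lay below 0. The 6 that fell were CCT7, CCT6A, CCT3, CCT8, CCT2 and TCP1, and CCT4 and CCT5 did not pass. Without RD replicate 3 the number called was 5, TCP1 being lost, and the median was -0.262. Leaving out RD replicate 2 gave 3 called subunits, and leaving out HFD replicate 1 gave 2. With either of the other two HFD libraries (replicate 2 or replicate 3) left out, CCT7 was the 1 subunit called.

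**Figure D1:**
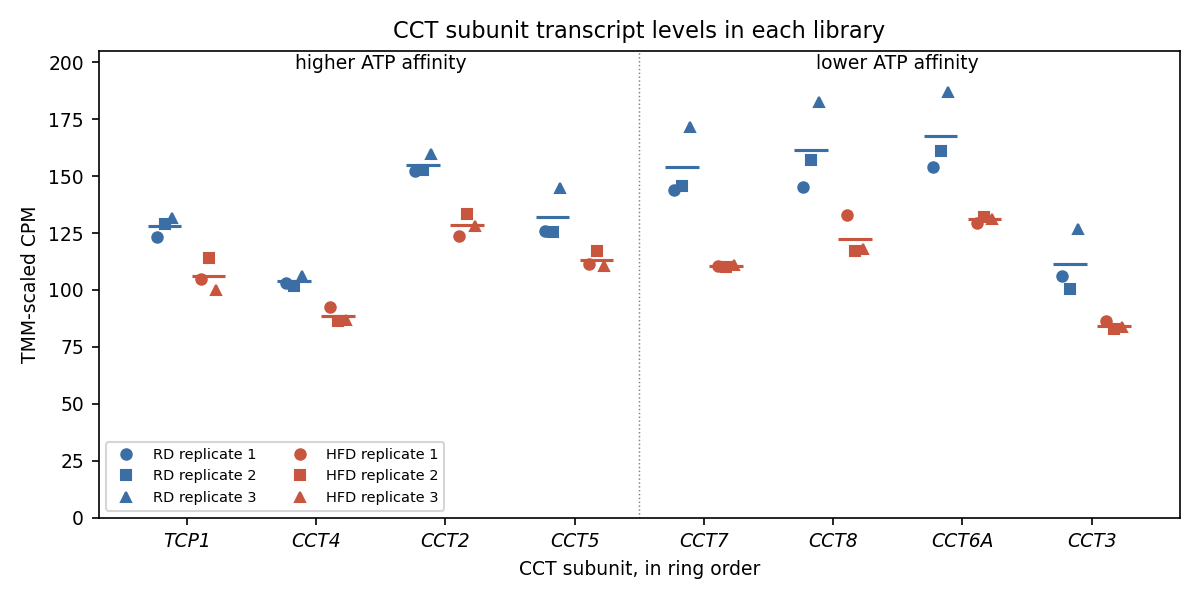
TMM-scaled CPM (vertical axis, from 0) of the 8 CCT subunits in the order of the ring, with 1 symbol per library (blue RD, red HFD; circle, square and triangle for replicates 1, 2 and 3) and a bar at each group mean. In each subunit all 3 HFD libraries lie below all 3 RD libraries, and RD replicate 3 is the highest library for all 8.

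The low-affinity side is described first, since all 4 of its subunits fell. CCT7, the eta subunit (chromosome 6, 85451514 to 85468475, plus strand, GENCODE M21 on mm10), stood at 144.1, 145.8 and 171.6 CPM in RD replicates 1 to 3 and at 110.5, 110.2 and 110.9 CPM in HFD replicates 1 to 3. The HFD libraries were almost equal to each other (coefficient of variation 0.342%), and RD replicate 3 was high among the RD libraries. The log2 change was -0.477 ± 0.079 (SE; adjusted p = 0.00666 by edgeR's quasi-likelihood test), and 4.59% of tested genes had a lower one. CCT7 was the only subunit whose call held in each of 16 other settings tried, including each library left out, with adjusted p from 1.52e-05 to 0.0415.

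CCT8, the theta subunit (chromosome 16, 87483326 to 87495873, minus strand), was at 145.3, 157.0 and 182.3 CPM in RD and at 132.8, 116.9 and 118.0 in HFD. Here HFD replicate 1 was the highest of its group and came nearest to RD, 12.5 CPM below the lowest RD library. The log2 change was -0.399 ± 0.093 (edgeR adjusted p = 0.0258). CCT6A, the zeta subunit (chromosome 5, 129786998 to 129846371, plus strand), was at 153.9, 161.1 and 187.1 CPM in RD and 129.5, 132.2 and 131.3 in HFD. The HFD libraries again lay close together, and RD replicate 3 stood above the other RD libraries. Its log2 change was -0.354 ± 0.080 (edgeR adjusted p = 0.0230).

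CCT3, the gamma subunit (chromosome 3, 88297116 to 88321767, plus strand), was at 106.2, 100.6 and 126.9 CPM in RD and 86.2, 83.0 and 83.8 in HFD. Its RD libraries had the widest relative spread of the ring (coefficient of variation 12.5%), again through RD replicate 3. The log2 change was -0.399 ± 0.092 (edgeR adjusted p = 0.0245). Without RD replicate 3, log2 changes on this side were smaller, from -0.396 (CCT7) to -0.271 (CCT6A), and all 4 subunits were still called. More calls of this side were lost without an HFD library. Over the whole table, genes called lower also went from 639 to 307, 192 and 188 without HFD replicates 1, 2 and 3. Without HFD replicate 2 or HFD replicate 3 only CCT7 of the 4 was called (adjusted p of the others 0.0872 to 0.118). Without HFD replicate 1 only CCT7 and CCT8 were (0.0649 and 0.0757 for CCT3 and CCT6A). CCT8 was also lost without RD replicate 2 (0.0524).

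On the high-affinity side the differences were smaller and the RD libraries mostly closer together. CCT2, the beta subunit (chromosome 10, 117051001 to 117063814, minus strand), was at 152.1, 152.5 and 159.6 CPM in RD and 123.8, 133.3 and 128.2 in HFD. The groups lay 18.8 CPM apart at their nearest libraries. The log2 change was -0.269 ± 0.063 (edgeR adjusted p = 0.0265). TCP1, the alpha subunit and the first to be known (chromosome 17, 12915701 to 12925067, plus strand), was at 123.2, 129.0 and 131.5 CPM in RD and 105.0, 114.0 and 99.8 in HFD, with HFD replicate 2 nearest to RD. Its log2 change was -0.267 ± 0.072 (edgeR adjusted p = 0.0437).

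CCT4, the delta subunit (chromosome 11, 22990519 to 23003780, plus strand), was at 103.1, 101.9 and 106.2 CPM in RD and 92.6, 86.3 and 86.9 in HFD. The groups did not overlap, but the log2 change of -0.228 ± 0.068 missed the threshold (edgeR adjusted p = 0.0610). CCT5, the epsilon subunit (chromosome 15, 31590800 to 31601804, minus strand), was at 126.1, 125.4 and 144.7 CPM in RD and 111.2, 117.2 and 110.6 in HFD. RD replicate 3 stood apart from the other RD libraries, and the log2 change of -0.225 ± 0.076 was not called (edgeR adjusted p = 0.0890). It was -0.160 ± 0.062 with that library left out. CCT4 passed by DESeq2 (adjusted p = 0.0491) and in none of the remaining 15 settings, where its adjusted p reached 0.197. CCT5 passed in none of 16 (0.0745 to 0.251). CCT2 was not called without RD replicate 2 or any one of the HFD libraries (adjusted p 0.0622 to 0.106), and TCP1 was called without RD replicate 1 but lost with any other library left out (0.0522 to 0.175).

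**Figure D2:**
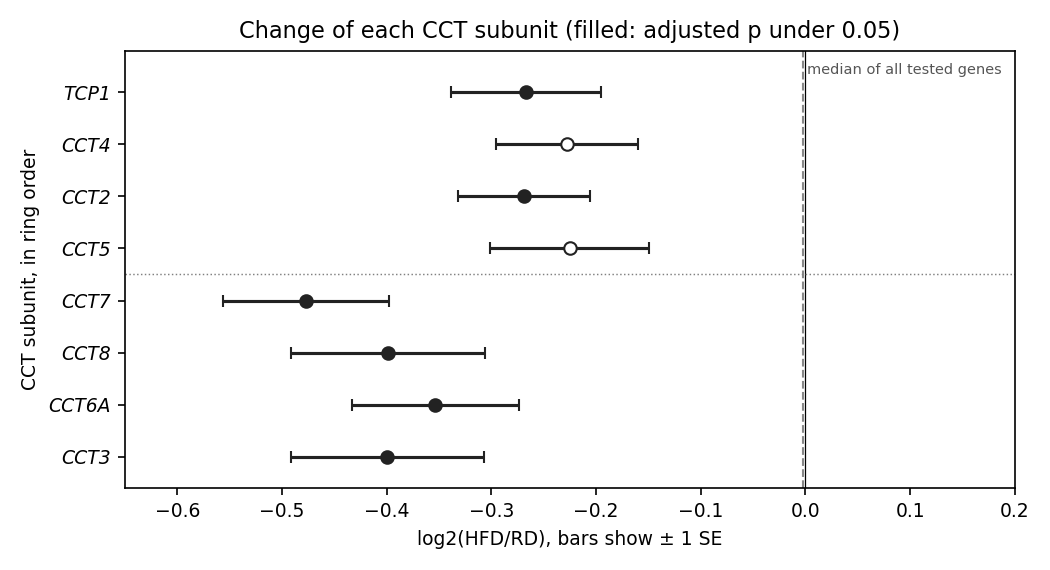
Log2 change (HFD over RD) of each CCT subunit with 1 SE on either side, in the order of the ring; filled points have an adjusted p under 0.05, and the dashed line marks the median of all tested genes. The 4 subunits of the high-affinity side lie between -0.269 and -0.225 and the 4 of the low-affinity side between -0.477 and -0.354.

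Differences were larger on the low-affinity side of the ring than on the high-affinity side, in the same direction. The median log2 change was -0.399 on the low-affinity side and -0.248 on the high-affinity side, and every subunit of the first lay below every subunit of the second. That order of the sides was found in all 16 other settings. Those that changed only the scaling or the filter shift all genes nearly alike and could hardly alter it. The order also held with each library left out, without RD replicate 3 with medians of -0.304 and -0.234. The nearest members, CCT6A (-0.354 ± 0.080) and CCT2 (-0.269 ± 0.063), differed by about the size of their standard errors. Within each library, the mean log2 CPM of the low-affinity side minus that of the high-affinity side was 0.122, 0.140 and 0.301 in RD and 0.0734, -0.0301 and 0.0568 in HFD. The groups did not overlap in this difference, and RD replicate 3 was the highest. No test was made on this difference, as it is a score over chosen members.

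**Figure D3:**
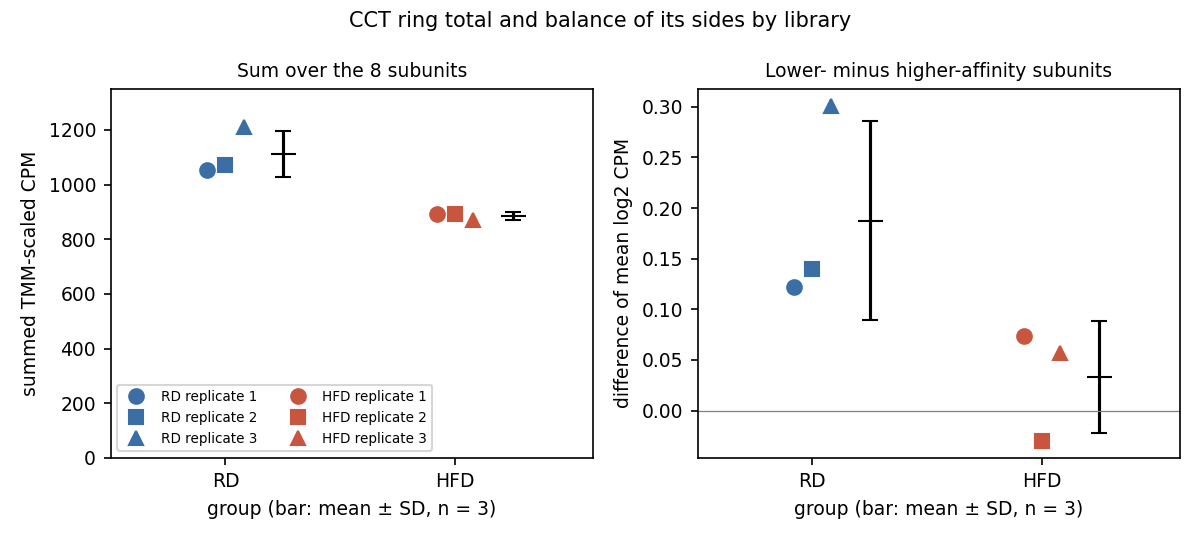
Left, CPM summed over the 8 subunits in each library; right, mean log2 CPM of the 4 low-affinity subunits minus that of the 4 high-affinity subunits; bars beside the points are mean ± SD of 3 libraries. The sum lies between 1054 and 1210 CPM in RD and between 869.4 and 893.1 in HFD.

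Summed over the ring, RD libraries held 1112 ± 85.1 CPM and HFD libraries 884.7 ± 13.3 CPM (SD, n = 3 each), a ratio of 0.795. The high-affinity side went from 518.4 ± 20.5 to 436.3 ± 13.1 CPM and the low-affinity side from 593.9 ± 64.6 to 448.5 ± 9.25 CPM. RD replicate 3 held the highest value of both sides, and the HFD libraries varied less than the RD libraries.

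Levels of different subunits can be compared only per length. Per kb of annotated exon, CCT2 was highest (60.5 ± 1.66 CPM per kb in RD and 50.2 ± 1.87 in HFD), and it stood apart from the next subunit in both groups. CCT8, CCT5 and CCT6A followed, at 46.2 to 52.3 CPM per kb in RD, where CCT8 overlapped CCT5 and CCT5 overlapped CCT6A, while CCT6A lay above TCP1 in every library. TCP1 and CCT4 were next (25.4 and 24.7 in RD) and overlapped each other, as did CCT4 and CCT7 in RD but not in HFD. CCT3 was lowest, at 17.5 ± 2.18 in RD and 13.2 ± 0.265 in HFD. The order was the same in both groups except that CCT5 and CCT8 changed places. The highest and the lowest subunit differed 3.61-fold over the 6 libraries, and 2.47-fold when the longest annotated transcript was taken as the length, where CCT2 and CCT3 again were first and last but CCT2 overlapped CCT5. Exon length varies with the annotation, from 2557 bases (CCT2) to 6778 bases (CCT7), so this order is rough. That of CCT6A is the least certain, since GENCODE M21 types its gene as a processed transcript and holds no coding transcript for it, and its annotated span and length are used here as they stand. As a share of the ring's total per length, CCT7 made up between 7.48% and 7.86% of that total in each RD library, against 6.73% to 6.97% for HFD. For CCT5 the share lay between 15.8% and 16.2% under RD, against 16.7% to 17.5% under HFD. These were the only shares of the 8 whose groups did not overlap.

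**Figure D4:**
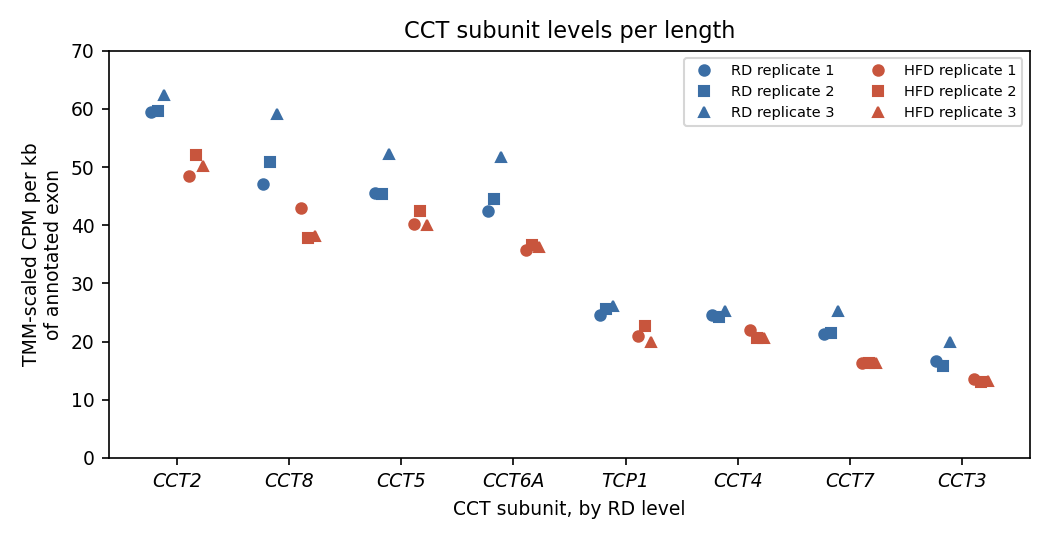
CPM per kb of annotated exon for each CCT subunit in each library, ordered by the RD mean (blue RD, red HFD; symbols are replicates). CCT2 is highest and CCT3 lowest in both groups.

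The subunits were also compared in their pattern over the 6 libraries, by the root mean square distance of their centred log2 CPM from the mean of the ring. CCT6A lay nearest to the ring's mean (0.0335) and CCT7 farthest (0.0783). Among 12750 other genes of mean log2 CPM 1 or above, whose median distance was 0.218, the 6 nearest were YBX1 (0.0188), SETDB1, EIF4G1, KIF5B, CPSF2 and RAN (0.0328). YBX1 encodes an RNA-binding protein, SETDB1 a histone methyltransferase, EIF4G1 a scaffold of translation initiation, KIF5B a kinesin heavy chain, CPSF2 a subunit of the mRNA cleavage complex and RAN the GTPase of nuclear transport. All 6 were called lower, with log2 changes from -0.349 (YBX1) to -0.317 (RAN), but they were picked for that likeness. Without HFD replicate 2 or HFD replicate 3 none of the 6 was called by edgeR (adjusted p 0.0521 to 0.153), and RAN was called in 8 of the 16 other settings.

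A paralog of CCT6A went the other way. CCT6B, known mainly from testis, was low, at 2.14 ± 0.43 CPM in the RD libraries and 4.30 ± 0.84 CPM in the HFD libraries (SD, n = 3 each). Its log2 change was 1.003 ± 0.262 (edgeR adjusted p = 0.0394). It was called higher, as were 5.87% of all tested genes, and its groups did not overlap. Its deposited counts were 43, 28 and 34 in RD and 55, 56 and 78 in HFD. The call was lost without RD replicate 2, RD replicate 3 or any one HFD library (adjusted p 0.0709 to 0.163). It was also lost with the replicate number as a block (0.0835).

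No tested gene of the proteins that work with the ring was called, whether in prefoldin, the cofactors or the chaperonin-like group. Over all tested genes 4.61% were called lower and 5.87% higher, so lists this short would often hold no call. Prefoldin, the hexamer that hands unfolded actin and tubulin to the ring, had 0 of 6 subunit genes called, with a median log2 change of -0.0249. By edgeR 0 of the 6 had an unadjusted p under 0.05 (the smallest was 0.281, PFDN1), and DESeq2 called 0 of them. PFDN5 stood at 84.9 ± 2.72 CPM in RD and 83.4 ± 6.92 in HFD, and VBP1 (prefoldin 3) at 37.6 ± 4.10 and 36.3 ± 1.43 CPM. Of the phosducin-like and other cofactors that bind the ring, 0 of 4 tested were called (1 at an unadjusted p under 0.05, PDCL with 0.215 ± 0.091), and DESeq2 called 0. TXNDC9 was at 61.3 ± 0.27 CPM in RD and 61.3 ± 4.08 in HFD. The chaperonin-like genes of Bardet-Biedl syndrome, which act with the ring in building the BBSome, also had 0 of 3 called by edgeR, and by DESeq2. MKKS (-0.325 ± 0.105, adjusted p = 0.0798) and BBS12 (-0.209 ± 0.086, adjusted p = 0.156) had unadjusted p under 0.05 by edgeR. Both lay lower in every HFD library than in any RD library, as did 15.6% of all tested genes. BBS10 had a log2 change of 0.0173 ± 0.123.

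Among the clients, actins lay lower and tubulins split. Of 3 tested actin genes, 2 fell, where 4.61% of all tested genes were called lower. ACTB was at 1082 ± 18.9 CPM in RD and 856.7 ± 118 in HFD (-0.336 ± 0.087, edgeR adjusted p = 0.0387), and ACTG1 at 596.0 ± 127 and 402.3 ± 46.6 CPM (-0.567 ± 0.136, adjusted p = 0.0291). Both calls were lost without HFD replicate 2 or HFD replicate 3, and that of ACTB also without RD replicate 1 or RD replicate 2 (adjusted p up to 0.153) or with library size as the only scaling (0.0697). With RD replicate 3 left out the log2 change of ACTG1 was -0.384 ± 0.083 (adjusted p = 0.0159). The smooth muscle actin gene ACTA2, a mark of mural cells, was at 6.69 ± 1.46 and 4.65 ± 1.57 CPM and was not called (adjusted p = 0.264).

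Of 17 tested tubulin genes, 4 fell, 2 rose and 11 were not called, with a median log2 change of -0.127. Over all tested genes 4.61% were called lower and 5.87% higher. TUBB, the general beta tubulin, was at 209.2 ± 1.36 CPM in RD and 159.6 ± 12.6 in HFD (-0.391 ± 0.070, edgeR adjusted p = 0.00895), and its call held in all 16 other settings. TUBB6 (-1.22 ± 0.26) fell as well, and so did TUBB4B (-0.535 ± 0.119) and TUBA1C (-0.800 ± 0.200), which are named beyond the rule to complete the count. The neuronal beta tubulin gene TUBB3 rose from 16.5 ± 4.90 to 33.5 ± 6.46 CPM (1.03 ± 0.21), and TUBB4A rose by 0.460 ± 0.096. TUBA1A, an alpha tubulin gene, stood at 269.2 ± 19.9 and 263.8 ± 19.5 CPM. RD replicate 3 was high for TUBB6, whose log2 change without it was -0.783 ± 0.124 (adjusted p = 0.00333), and TUBB4B and TUBA1C then stood at -0.377 and -0.535, all still called. TUBB6, TUBB4B and TUBA1C were not called without any one of the HFD libraries (adjusted p 0.0685 to 0.142), TUBB3 not without HFD replicate 3 (0.0767), and TUBB4A not without HFD replicate 1 or HFD replicate 3 (up to 0.0897). With the replicate number as a block TUBA1C (0.0699) and TUBB4A (0.0512) were also lost, and TUBA1C by limma-voom (0.0513). Tubulin genes are close in sequence, so how reads were divided among them is uncertain.

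The cofactors that join alpha and beta tubulin after the ring has folded them had 0 of 7 genes called by edgeR, and 0 by DESeq2. That is near the 4.61% called lower and 5.87% called higher over all tested genes. Of the 7, 1 had an unadjusted p under 0.05. That gene was TBCB, at 27.9 ± 0.59 CPM in RD and 22.9 ± 1.28 in HFD (-0.285 ± 0.096, adjusted p = 0.0894). Among 13 further clients, mostly proteins with WD repeats, 1 rose and 12 were not called, a share near the 5.87% of all tested genes called higher. The one that rose was GNB3, a G protein beta subunit of cone photoreceptors, from 57.6 ± 9.17 to 117.6 ± 8.69 CPM (1.03 ± 0.12, edgeR adjusted p = 0.00142). Its call held in all 16 other settings, while the widely expressed GNB1 was at 329.4 ± 6.01 and 333.1 ± 2.80 CPM. The mTORC1 subunit gene RPTOR (-0.170 ± 0.061) did not pass (adjusted p = 0.109).

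**Figure D5:**
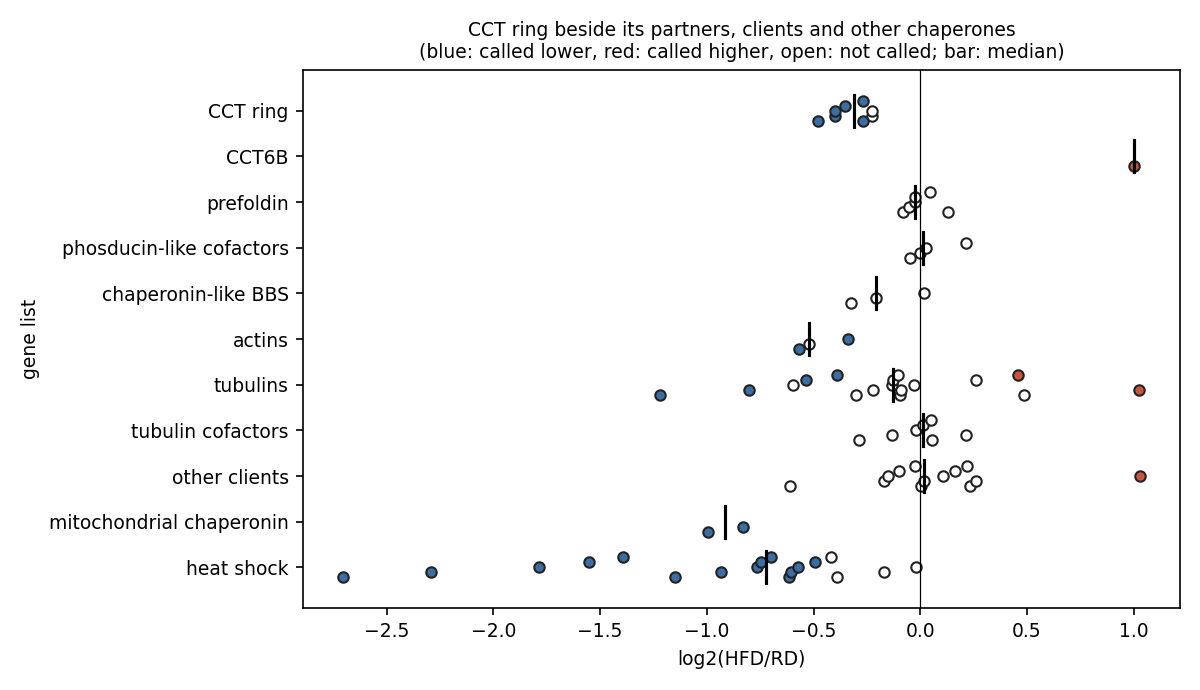
Log2 change (HFD over RD, horizontal axis) of each tested gene of the CCT ring, of CCT6B and of the lists of partners, clients and other chaperones; blue points were called lower, red points called higher, open points not called, and vertical bars are medians. The ring lies at a median of -0.311, prefoldin at -0.0249 and the heat shock list at -0.724.

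Other chaperone genes had larger differences at their medians than the ring, a comparison that was not tested. The mitochondrial chaperonin, a related barrel of different make, fell in both its genes, HSPD1 from 232.4 ± 36.5 to 130.5 ± 7.65 CPM (-0.833 ± 0.105) and its lid HSPE1 from 61.9 ± 11.6 to 31.1 ± 2.02 CPM (-0.996 ± 0.130). Of 18 cytosolic heat shock factors, chaperones and co-chaperones, 14 were called lower, against 4.61% of all tested genes, with a median of -0.724. Their summed level was 6450, 5492 and 7879 CPM in RD replicates 1 to 3 and 3693, 3206 and 3153 CPM in HFD replicates 1 to 3. RD replicate 3 was thus the highest library for this sum as it was for each ring subunit. The factors themselves, HSF1 (-0.168 ± 0.104) and HSF2 (-0.0196 ± 0.0951), were not called. Nor were DNAJB1 (-0.420 ± 0.315), whose groups overlapped, and BAG3 (-0.392 ± 0.141). What part the heat shock genes had in the difference of the ring was not tested.

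Markers of other cell types, summed by type, overlapped between the groups in all 5 lists. With 4.61% of all tested genes called lower and 5.87% higher, lists this short would often hold no call. Of the proliferation markers 0 of 5 tested were called, with a sum of 12.5 to 14.4 CPM in RD and 12.2 to 15.5 in HFD. The other 5 of that list, CDK1, CCNB1, AURKB, BUB1 and NUSAP1, were not tested. Endothelial markers (0 of 6 called) summed to 356.9 to 376.3 and 368.1 to 396.1 CPM, and myeloid markers (0 of 7) to 64.8 to 88.7 and 78.2 to 89.9 CPM. Of 6 markers of folliculostellate cells and progenitors ALDH1A2 rose and VIM fell, and the sums were 152.7 to 165.7 and 155.3 to 175.7 CPM. The posterior lobe markers (0 of 5 called) ranged from 167.2 to 271.3 CPM in RD and from 91.7 to 208.6 in HFD. In the lists with 0 called by edgeR, DESeq2 also called 0, and 1 gene had an unadjusted p under 0.05 (the endothelial cadherin gene CDH5, 0.263 ± 0.096). Among hormone genes 4 were called lower and 2 higher, and whether this bears on the ring was not tested.

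Neighbouring genes were looked at because the counts may not separate strands. The gene on the other strand whose start lies 48 bases from that of Cct5 is listed as ATPSCKMT (Fam173b in GENCODE M21), a mitochondrial methyltransferase gene. It fell from 22.5 ± 1.46 to 16.95 ± 0.64 CPM (-0.409 ± 0.108, edgeR adjusted p = 0.0405), while CCT5 itself was not called. That call held in 9 of the 16 other settings. It was lost without RD replicate 2 or any one HFD library (0.114 to 0.126). Upper-quartile scaling (0.0573), library size as the only scaling (0.074) and the replicate number as a block (0.093) also lost it. Of genes in the table that overlap a subunit on the opposite strand, MRPL18 at Tcp1 (0.0270 ± 0.132), PSPH at Cct6a (-0.376 ± 0.164), PRADC1 at Cct7 (-0.134 ± 0.196) and USP16 at Cct8 (-0.304 ± 0.113) were not called. All but USP16 (63.1 ± 9.83 CPM in RD) were at 15.4 CPM or less in RD. TSACC, whose start lies 117 bases from that of Cct3, was not called either (0.121 ± 0.231). No annotated pseudogene transcript matched a subunit at 95% identity or more over 500 bases. The nearest were Cct3-ps1, with 91.4% over 1650 bases, and Gm5380, with 97.1% over 209 bases of Cct7.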

How the data were processed

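The authors deposited a table of raw whole-number read counts per gene for 6 libraries, with upper-case symbols. RNA was polyadenylated, per the labels' protocols, and the genome build was mm10, per the submitters' processing notes. The labels and notes name no aligner, counting tool, strand setting or annotation (not given in the sources used here). Among those 16736 rows the 8 ring subunits were matched by symbol.

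Counts were tested with edgeR 4.0.16 (R 4.3.3) by its quasi-likelihood test, two-sided, on the whole table (TMM, minimum count 10, minimum total 15, diet as the only term), with Benjamini-Hochberg adjustment over 13873 genes and a threshold of 0.05. SE is the log2 change divided by the root of F. At these totals 3 counts equal 0.166 to 0.211 CPM. Likeness used log2 CPM with a prior count of 2. Spans and lengths came from GENCODE M21, promoters from RefSeq. The fit was tested on simulated data, where the changes put in were larger in size than any in the ring. Changes as small as those of the ring were not covered. Alternatives were other scalings, filters, halved counts, DESeq2 1.42.0, limma-voom (limma 3.58.1), a replicate block and each library left out.

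The members and lists were chosen with earlier results of these data known. Named genes are the 8 subunits, up to 4 of each partner, client or chaperone list with the smallest p-values, overlapping or adjacent genes, and the 6 genes nearest in pattern. PFDN5, TUBA1A, TUBA1C, TUBB4B, GNB1, HSF1, HSF2, DNAJB1 and BAG3, and ALDH1A2, VIM and CDH5 among the markers, were named after their values were seen. The plan for normalized values was not needed.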

Additional observations from a re-analysis of the deposited data

How the results depend on the processing

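All 8 subunits kept a negative log2 change in all 16 other settings. As the groups did not overlap in any subunit, leaving out a library could hardly reverse a sign. The ring's median ranged from -0.361 (without RD replicate 1) to -0.242 (library size as the only scaling), beside the -0.311 reported. With library size only, the median over all tested genes was itself 0.0653. Both bounds lay within the median standard error of a single subunit, which does not measure the spread of a median over the ring. The number of subunits called was 6 and became 1 to 6 with a library left out, against 431 to 1523 genes over the whole table (1453 reported) and 2 to 11 of the partner and client genes (9 reported). The lowest counts came without HFD replicate 2 or HFD replicate 3, and the cause was not tested. With library size as the only scaling 4 subunits were called (TCP1 and CCT2 were lost, adjusted p = 0.0956 and 0.0651), and the HFD-high share of all calls was 72.5%, where TMM gave 56.0%. Upper-quartile scaling gave 5, without TCP1 (0.0602), and DESeq2 gave 7.

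With the replicate number as a replicate block, 1 subunit was called (CCT7, adjusted p = 0.0186; the others that had been called ranged from 0.0505 to 0.0984), 7 partner and client genes and 808 genes over the table. The labels do not say that numbers pair the libraries. Deviations of same-numbered libraries from their group means correlated at -0.127, 0.004 and -0.097. Of the libraries, 1 of 3 RD and 0 of 3 HFD correlated best with their own number. With 3 libraries per group this cannot show whether the numbers pair the libraries. The fold between the highest and lowest subunit per length was 2.47 with the longest transcript as length, by construction of the lengths. Depth was no limit for the ring, at 1222 or more counts per subunit and library, but CCT6B rested on 28 to 78 counts.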
